A study of Mus musculus with 3 samples.

Results

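Orphan CpG islands are CpG-rich stretches that lie away from annotated promoters, and 389 of the 16854 autosomal GLI3 peaks in mouse forelimb buds were located at one (2.31%, 95% Wilson interval 2.09 to 2.55). A peak was included when its summit, the point of highest enrichment, lay more than 3 kb from every annotated transcription start site (TSS) of any gene type in the GENCODE M21 annotation of the mm10 build. In addition, a window of 500 bp lying within 500 bp of the summit had to have a GC content of at least 55% and an observed to expected ratio of CpG dinucleotides above 0.65. These criteria used position and sequence only, and no measured enrichment. The whole list held 17149 peaks. The remaining autosomal peaks were 6214 other distal peaks (more than 3 kb from a TSS without such a window), 7811 TSS island peaks (within 3 kb of a TSS, with such a window) and 2440 other TSS peaks.

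The peaks came from ChIP-seq, the sequencing of DNA fragments pulled down with a protein of interest, in E10.5 forelimb buds (32 to 35 somites). The samples were 2 GLI3-FLAG ChIP replicates, each from limb buds of 2 litters, and 1 input library of chromatin that was not immunoprecipitated. All 3 carried an endogenous Gli3 allele with a 3XFLAG tag on a mixed background, although the genotype label reads wild type, and all were dissociated in 100 µg/ml Liberase for 6 min before fixation and amplified for 15 PCR cycles. The list is attached to the first ChIP replicate in the deposit and was taken as a joint list of both replicates against the input. The study describes its GLI3 binding regions, which it limits to a false discovery rate under 0.05, as coming from 2 biological replicates. It names CisGenome as the caller, without saying how the replicates were combined or how the input was used. The list used here holds peaks of any rate, so a peak in this text need not be a binding region of the study. The list gives one value per peak with no spread between replicates. The study states a minimum read depth that all its ChIP libraries passed, and the read counts of single libraries were not used here. The embryos were pooled and the whole limb bud was used, so the list does not show which cells carried a given peak. By Western blot the study found nuclear GLI3 almost only in the anterior limb bud, as the repressor. It takes its regions as likely bound by that form. Since no expression values were used here, the tissue label was not checked against marker genes.

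GLI3 is a zinc finger transcription factor of the Hedgehog (HH) pathway. Without HH signal it is cut into a repressor that holds target genes down, and with signal the processing stops, which in the limb bud sets anterior against posterior identity. CpG islands are mostly unmethylated, and most of them overlap promoters. Orphan islands lie between or inside genes, and are known to include unannotated promoters, alternative promoters, sites covered by polycomb proteins and parts of enhancers.

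The sequences around the 5 best-ranked summits show how dense the CpG dinucleotides were. Each line gives 151 bases centred on the summit, read 5′ to 3′ on the plus strand of the mm10 genome, with every CpG in capitals.
Peak nearest Cstad, chr2:30658602-30658752: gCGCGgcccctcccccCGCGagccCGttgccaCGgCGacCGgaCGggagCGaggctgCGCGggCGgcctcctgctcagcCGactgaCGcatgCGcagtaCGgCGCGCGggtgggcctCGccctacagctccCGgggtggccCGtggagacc
Peak nearest Ssbp2, chr13:91371027-91371177: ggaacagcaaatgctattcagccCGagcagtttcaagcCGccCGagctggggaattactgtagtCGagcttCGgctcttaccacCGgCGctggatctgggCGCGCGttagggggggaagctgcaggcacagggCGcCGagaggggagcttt
Peak nearest Hmga2, chr10:120552077-120552227: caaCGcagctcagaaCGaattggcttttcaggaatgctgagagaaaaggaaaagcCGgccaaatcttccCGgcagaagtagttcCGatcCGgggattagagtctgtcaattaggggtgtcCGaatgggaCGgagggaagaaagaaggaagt
Peak nearest Hes1, chr16:30070302-30070452: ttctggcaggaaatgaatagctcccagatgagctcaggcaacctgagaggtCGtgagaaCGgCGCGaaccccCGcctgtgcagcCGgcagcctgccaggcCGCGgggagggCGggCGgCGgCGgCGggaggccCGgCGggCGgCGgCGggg
Peak nearest Crocc2, chr1:93176717-93176867: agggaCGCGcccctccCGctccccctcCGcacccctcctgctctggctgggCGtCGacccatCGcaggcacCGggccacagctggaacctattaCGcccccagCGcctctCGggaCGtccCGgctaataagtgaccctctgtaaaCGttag

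The peak nearest Cstad held 23 CpG dinucleotides in these 151 bases and the peak nearest Hmga2 held 8, while the other 3 held between 12 and 18. None of the 5 contained a GLI match in the letters shown. Here a GLI match is the 9-base GLI consensus GACCACCCA on either strand with at most 1 mismatch, searched from 250 bp before to 250 bp after the summit.

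The label orphan held for the GENCODE annotation but not in full for another one. A RefSeq transcript of the same build started within 3 kb of 113 of the 389 summits (29.0%, 24.8 to 33.7) and within 500 bp of 52 (13.4%, 10.3 to 17.1). For other distal peaks the same shares were 7.40% and 2.14%. The peak nearest Hes1 lay 61 bp from a RefSeq start, the one nearest Tle2 43 bp and the one nearest Cntfr 75 bp. These peaks were kept, because the criterion rests on GENCODE, and the 276 peaks more than 3 kb from either kind of start are given separately where it matters. The islands themselves, built by merging all windows that met the criterion, reached within 3 kb of a TSS for 39 of the peaks although the summit did not.

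The peaks lay in 329 separate islands. With each island counted once, they had a median length of 993 bp (quartiles 802 and 1200 bp) and a median of 56 CpG dinucleotides, and 388 of the 389 summits fell inside their island. In 54 islands more than 1 peak was listed, and these held 114 of the peaks, so that neighbouring peaks often share a sequence and do not count as separate loci. As a share of the listed peaks of a chromosome they ranged from 0.838% on chromosome 10 (7 peaks) to 4.26% on chromosome 19 (23 peaks). Only 3 of the 389 (0.771%, 0.263 to 2.24) lay mostly in repeats, against 3.11% of other distal peaks.

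The enrichment of GLI3 at orphan islands was about that of the rest of the list. The maximum log2 fold enrichment over input ranged from 1.76 to 5.21, with a median of 2.24 (95% order-statistic interval 2.20 to 2.31). The median was 2.18 (2.17 to 2.20) at other distal peaks and 2.28 (2.27 to 2.30) at TSS island peaks. A false discovery rate (FDR) under 0.05 was listed for 173 of the 389 (44.5%, 39.6 to 49.4), beside 42.7% of all autosomal peaks, 38.8% of other distal peaks and 47.3% of TSS island peaks. The list therefore contains, at these islands as elsewhere, a majority of peaks that do not pass this threshold. Within the 389 peaks the rank, the log2 enrichment and the FDR gave the same order, and the threshold fell at a log2 enrichment of 2.32, so these are one measure and not 3. All the intervals given cover counting over peaks only, and peaks are not replicates of a condition.

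Strong peaks were present. Of the 1000 best-ranked peaks in the list, 30 were at orphan islands, which is 7.71% of the orphan island peaks (5.46 to 10.8) beside 5.9% of all autosomal peaks, and 4 were among the best 100. Enrichment went with peak length, which ranged from 100 to 1750 bp (Spearman's rho 0.80 over the 389 peaks) as a description. The rho was -0.03 with island length and 0.16 with the GC content within 250 bp of the summit, over a range of GC that the criterion had narrowed.

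**Figure D1:**
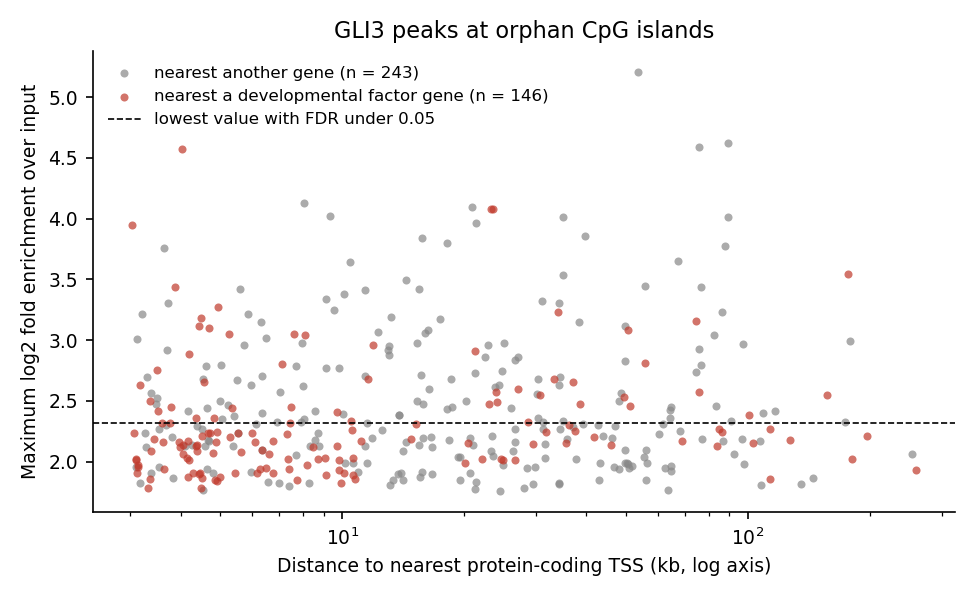
The 389 orphan island peaks by distance from summit to the nearest protein-coding TSS (kb, log axis) and maximum log2 fold enrichment over input, with 1 point per peak. Red points are the 146 peaks nearest a developmental transcription factor gene, grey points the other 243, and the dashed line at 2.32 is the lowest value with an FDR under 0.05. Strong peaks are found from 3 kb to beyond 100 kb, such as the one nearest Tfap2c (3.54 at 176 kb).

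The best-ranked orphan island peak (rank 15, log2 enrichment 5.21) was located on chr2:30657600-30659349, in an exon of the noncoding gene Gm14486, inside the noncoding gene 9330198N18Rik, and 53.5 kb from the nearest coding gene, Cstad. A second peak nearest Cstad had a value of 3.77. On the same chromosome the peak nearest 1700001O22Rik reached 4.01. The next 3 orphan island peaks in rank were those nearest Ssbp2, a subunit of the LDB1 transcription complex (4.62), Hmga2, a chromatin protein of embryonic mesenchyme (4.59), and Hes1, a repressor of the Notch pathway (4.57). Together with the first, these were the 4 peaks among the best 100 of the whole list.

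The rest of the 20 best-ranked had log2 values between 3.64 and 4.13. They lay nearest genes of quite different kinds. Transcription factor genes were Nr2f2 (4.08), Bcl11b (4.08, in an intron of that gene) and Id3 (3.95), which encodes an inhibitor of basic helix-loop-helix factors. Genes of WNT signalling and its co-repressors were Nkd1, an inhibitor of WNT signalling (3.65), and Tle2, a Groucho co-repressor (3.75). Lipid genes were Scd2, a fatty acid desaturase (4.02), and Acot11, an acyl-CoA thioesterase (4.01). The others were the peaks in Crocc2 (4.13) and in Tns3, a focal adhesion protein (3.86), both intronic, the peak in a coding exon of Btd, the biotinidase gene (4.09, with Hacl1 as its nearest start), and those nearest Bahcc1 (3.97), Kcnj1 (3.84), Zfp382 (3.80) and Tmem120b (3.64). Of these 20 peaks 12 were intergenic, 6 lay more than 50 kb from a coding TSS, 6 had a GLI match and 4 were nearest a developmental factor gene. RefSeq placed a start within 3 kb of 9 of them.

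Next, the position of the peaks relative to genes was examined. By the main criterion orphan island peaks lay outside genes more often than other distal peaks, and a larger share lay in exons. Of the 389 summits 262 were intergenic (67.4%, 62.5 to 71.8), against 50.3% of other distal peaks (49.1 to 51.6). Introns of coding genes held 65 (16.7%, 13.3 to 20.7), against 41.0%. Coding exons held 23 (5.91%, 3.97 to 8.72), against 0.402% (0.273 to 0.593), and 3′ UTRs held 10 (2.57%), against 1.05%. Inside any gene were 127 (32.6%, 28.2 to 37.5), against 49.7% of other distal peaks. This direction depended on the start sites used. With a TSS distance of 1 kb the shares were 54.8% and 52.7%, with overlapping intervals, and with the 5′ ends of genes only they turned to 72.7% and 53.9%. Exons are richer in GC than introns, and the criterion selects for GC content, so the exon share is not independent of it.

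**Figure D2:**
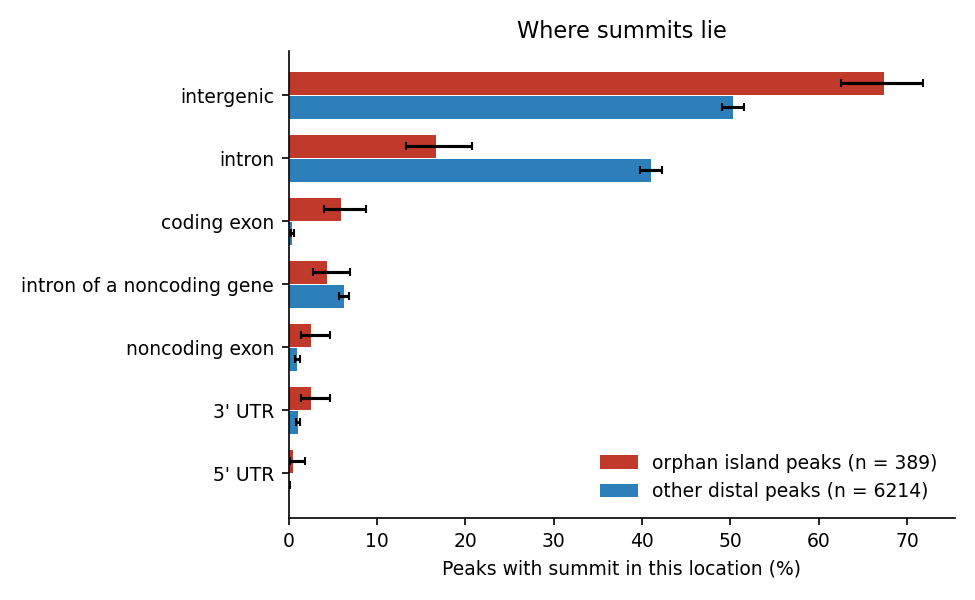
Share of summits (%) in each kind of location, for 389 orphan island peaks (red) and 6214 other distal peaks (blue). Bars start at 0 and the lines are 95% Wilson intervals. The intergenic and exonic shares are higher and the intronic share is lower at orphan islands.

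The distance to the nearest coding TSS ranged from 3.03 to 259 kb with a median of 13.8 kb. It was within 10 kb for 164 peaks, between 10 and 100 kb for 206 and above 100 kb for 19. Upstream and downstream positions were as frequent, with 194 and 195 peaks. Peaks also clustered. Another listed peak of any kind lay within 10 kb of 268 (68.9%, 64.1 to 73.3), beside 50.9% of all autosomal peaks, 41.2% of other distal peaks, 53.9% of TSS island peaks and 62.8% (60.9 to 64.7) of other TSS peaks. The last interval overlaps that of the orphan island peaks. Some of these neighbours lay in the same island. When peaks within 1 kb were not counted as neighbours, 55.8% (50.8 to 60.6) still had one within 10 kb, against 29.98% of other distal peaks, 29.3% of TSS island peaks and 50.3% (48.3 to 52.3) of other TSS peaks. The nearest coding gene had a listed peak within 3 kb of one of its own TSSs for 266 (68.4%, 63.6 to 72.8), against 58.5% of other distal peaks and 81.6% of all autosomal peaks, of which the TSS peaks are themselves near a TSS.

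The genes nearest to the orphan island peaks were then compared with gene lists. Genes of developmental transcription factors were frequent among them. The homeobox genes, which encode factors that pattern the embryonic axes and organs, were nearest to 66 peaks at 40 genes (17.0%, 13.6 to 21.02), beside 4.8% of all autosomal peaks and against 3.64% of other distal peaks and 3.93% of TSS island peaks. Other developmental factors, of the forkhead, SOX, T-box, basic helix-loop-helix and further families, were nearest to 80 peaks at 52 genes (20.6%, 16.8 to 24.9), beside 5.71% of all autosomal peaks and against 6.94% and 3.66%. For both lists together the count was 146 of 389 (37.5%, 32.9 to 42.4), against 1771 of all 16854 autosomal peaks, 10.6% of other distal peaks, 7.59% of TSS island peaks and 15.4% of other TSS peaks. The share was 23.1% with the 5′ ends of genes only and 23.2% with a lenient CpG criterion, where other distal peaks had 10.8% and 8.82%. The lists hold 398 of the 21728 annotated coding genes (1.83%).

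Counting each gene once gave a similar picture. The 389 peaks had 274 different nearest coding genes, of which 92 were developmental factors (33.6%, 28.2 to 39.4), against 6.39% of the 2819 genes nearest to other distal peaks and 4.24% of the 5728 nearest to TSS island peaks. Requiring instead that a developmental factor TSS lie within 100 kb gave 37.3% for orphan island peaks and 8.16% for other distal peaks. Among the 276 peaks also more than 3 kb from a RefSeq start, 39.9% were nearest a developmental factor gene.

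**Figure D3:**
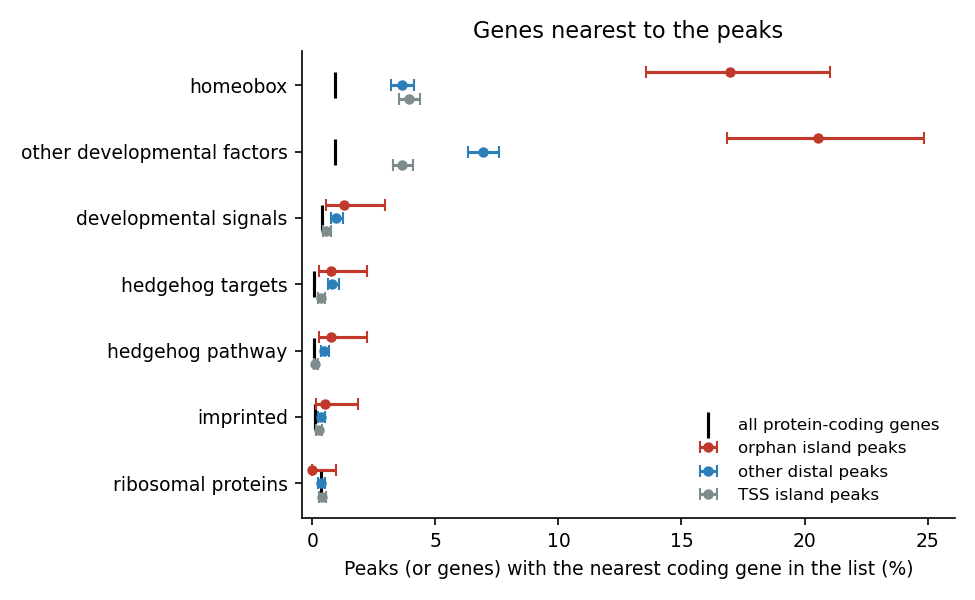
Share of peaks (%) whose nearest protein-coding gene is in each list, for orphan island peaks (red), other distal peaks (blue) and TSS island peaks (grey), with 95% Wilson intervals. The black bar is the share of all 21728 coding genes in the list. The 2 lists of transcription factors stand at 17.0% and 20.6% for orphan island peaks, and the intervals of the other lists overlap those of other distal peaks.

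The homeobox peaks were, however, the weaker ones, and with them the peaks near developmental factor genes as a group. Of these 146 peaks 51 had an FDR under 0.05 (34.9%) and their median log2 enrichment was 2.17, whereas 122 of the other 243 passed (50.2%) with a median of 2.32. They also lay closer to their gene, at a median of 7374.5 bp against 18097 bp. Put the other way, developmental factor genes were nearest to 29.5% (23.2 to 36.7) of the peaks with an FDR under 0.05 and to 44.0% (37.5 to 50.6) of the rest. The same 2 shares were 8.87% and 11.7% of all autosomal peaks, 6.61% and 8.47% of TSS island peaks and 10.2% and 18.5% of other TSS peaks. At other distal peaks they were close, at 10.3% (9.18 to 11.6) and 10.7% (9.78 to 11.7), and the difference between the classes was not tested. The homeobox peaks at orphan islands were lower still, with 12 of 66 under the threshold, a median of 2.15 and a highest value of 3.10, the latter in an intron of Hoxb3. The other developmental factor peaks had 39 of 80 under the threshold, a median of 2.28 and a highest value of 4.57, at Hes1. Their share under the threshold and their median were close to those of the 243 peaks nearest another gene.

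Some of these genes are well known for their part in limb development, and they are named here for that role after the values were seen. Tbx15, a factor of limb and skeletal mesenchyme, had an intronic peak with a log2 enrichment of 3.27 and an FDR of 0. Tbx5, which starts forelimb outgrowth, had 2 peaks 28.7 and 36.2 kb upstream with values of 2.32 (FDR 0.0374) and 2.30 (FDR 0.0704). Lmx1b, the dorsal limb determinant, had an intronic peak with 2.45 (FDR 0.0208). En1, its ventral counterpart, had 2.24 (FDR 0.0799) and did not pass. Of the apical ridge factors, Sp9 had 2.44 (FDR 0.0208), and Sp8 had 2.13 (FDR 0.233) and did not pass. Msx2, Alx4, Twist1 and Hoxd10 had no value above 2.26, and none of their peaks passed the FDR threshold.

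In 20 genes 3 or more orphan island peaks shared the nearest gene, 80 peaks in all. Cbx8, which encodes a polycomb protein, had 9 peaks in 6 islands between 3.28 and 15.7 kb from its start, with log2 values from 1.81 to 3.07 and 3 under the FDR threshold. Ezh2, the histone methyltransferase of the polycomb repressive complex, had 4, at 55.3 to 77.1 kb, of which 1 passed with 3.44. The chromatin remodeller gene Chd7 had 5, with values from 1.85 to 2.33. Homeobox genes in this group were Pax2, with 7 peaks in 7 islands and none under the threshold (1.89 to 2.27), Lbx1 with 4 (1.85 to 2.68) and Pax3 with 4 (1.91 to 2.32). Further factors were Ebf3 with 5, Nr2f2, Skor1 and Tbr1 with 4 each, and Foxa1, Foxp4, Fos, Nr2f1 and the HH effector Gli2 with 3 each. Acot11 and Spag6, an axonemal protein gene, had 3 each, all of which passed the threshold with values from 2.63 to 4.01 and from 2.56 to 2.92. The 3 Acot11 peaks lay in 2 islands, at most 889 bp from a RefSeq start. The 3 Spag6 peaks lay in 1 island, at most 1324 bp from a RefSeq start. The remaining genes were Cstad (3 peaks, 2 passing), Rere (3, 1 passing) and Tmem174 (3, 1 passing). Many weak peaks with one nearest gene, as at Pax2 and Tbr1, and few strong ones, as in the 2 islands nearest Acot11, were both seen.

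Known targets of HH signalling were nearest at about the share of the whole list. Of the 17 limb HH target genes in the list 3 were nearest to an orphan island peak, with 1 peak each (0.771% of the 389, 0.263 to 2.24, against 0.676% of all autosomal peaks and 0.821% of other distal peaks). The peak nearest Hand2, a posterior limb factor, lay 7.63 kb downstream of its start at chr8:57328050-57328949 and had a log2 enrichment of 3.05 with an FDR of 0. The peak nearest Sall1, a zinc finger factor, lay 37.5 kb downstream at chr8:89006350-89006699 with 2.26 and an FDR of 0.0709. The peak in an intron of Cntfr, a cytokine receptor gene, at chr4:41683300-41683749 had 2.20 and an FDR of 0.133. Only the first passed the threshold, and none had the exact GLI consensus.

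Of the 14 HH pathway genes only Gli2 was nearest to orphan island peaks, with 3 (0.771%, 0.263 to 2.24, against 0.309% of all autosomal peaks and 0.483% of other distal peaks). They were a distal one 157 kb away (2.55, FDR 0.00706) and 2 in its intron (1.91 and 1.88, FDR 0.782 and 0.808). The developmental signals were nearest to 5 peaks (1.29%, 0.5502 to 2.97, against 0.771% of all autosomal peaks). Wnt2b had the strongest (3.21, FDR 0). The others did not pass the threshold, and were 2 at Nog, an antagonist of BMP signals (2.30 and 1.82), and the intronic peaks of Wnt3a (2.27) and Fgf18 (2.22). Imprinted genes, whose control regions are CpG-rich, were nearest to 2 (0.514%, against 0.350% of all autosomal peaks), H13 (3.06) and Cdkn1c (2.14). The 77 ribosomal protein genes, whose promoters are CpG islands, were nearest to none of the 389, which allows a share of up to 0.978% (upper Wilson limit), against 0.354% of other distal peaks.

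The GLI motif was examined next. At orphan island peaks it was about as frequent as at TSS island peaks. By the main criterion and several alternatives it was less frequent than at other distal peaks. By the main criterion no higher density was seen within 50 bp of the summits than between 150 and 250 bp. A GLI match lay within 250 bp of 57 of the 389 summits (14.7%, 11.5 to 18.5), beside 17.9% of all autosomal peaks, 20.5% (19.5 to 21.5) of other distal peaks and 14.8% (14.0 to 15.6) of TSS island peaks. Windows of the same size 2 kb to either side of the orphan island summits were also searched. A match was found in 82 of 778 of them (10.54%, 8.57 to 12.9). This interval overlaps the one at the summits, and the difference, in windows that belong to the same peaks, was not tested. Such windows had a match in 10.16% at other distal peaks and 10.72% at TSS island peaks. At the orphan island summits the share was 19.1% (13.9 to 25.6, 33 of 173) among peaks with an FDR under 0.05. It was 11.1% (7.58 to 16.0, 24 of 216) among the rest, and these intervals overlapped. Other distal peaks had 24.98% (23.3 to 26.7) and 17.7% (16.5 to 18.9) in the same split, so among peaks with an FDR under 0.05 the intervals of both classes overlapped. They also overlapped with a TSS distance of 10 kb, at 18.8% (13.7 to 25.2) against 20.2% (19.02 to 21.4), and with the strict CpG criterion, at 15.8% (11.6 to 21.1) against 20.3% (19.3 to 21.3). Within 500 bp of the summit the shares were 24.4% (20.4 to 28.9) and 29.7% (28.5 to 30.8), which overlapped as well. The intervals stayed apart with a TSS distance of 1 kb (16.22% against 20.92%) and with the 5′ ends of genes only (13.81% against 20.47%). They also did so with coding transcripts only (15.22% against 20.65%) and with the lenient CpG criterion (17.28% against 21.03%). Within 50 bp of the summit they were apart too (2.06% against 6.61%). The median log2 enrichment was 2.50 (2.20 to 2.74) for the 57 peaks with a match and 2.24 (2.19 to 2.29) for the 332 without.

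The position of the matches differed from that at other distal peaks. Within 50 bp of the orphan island summits there were 10 matches, and between 150 and 250 bp there were 31, a density ratio per base of 0.645 (0.321 to 1.30). With the lenient CpG criterion (200 bp, GC of 0.5 and a ratio of 0.6) it was 1.31 (0.966 to 1.79), above 1. By the main criterion the ratio was 2.46 (2.16 to 2.80) at other distal peaks and 1.45 (1.25 to 1.67) at TSS island peaks. The orphan interval spans 1 and lies below that of other distal peaks. It rests on few matches, and in bins of 50 bp the lowest bin (8 matches under 50 bp) stood next to the highest (22 matches from 50 to 100 bp). One peak in Rere contributed 4 of the 31 outer matches, and without it the ratio was 0.741.

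**Figure D4:**
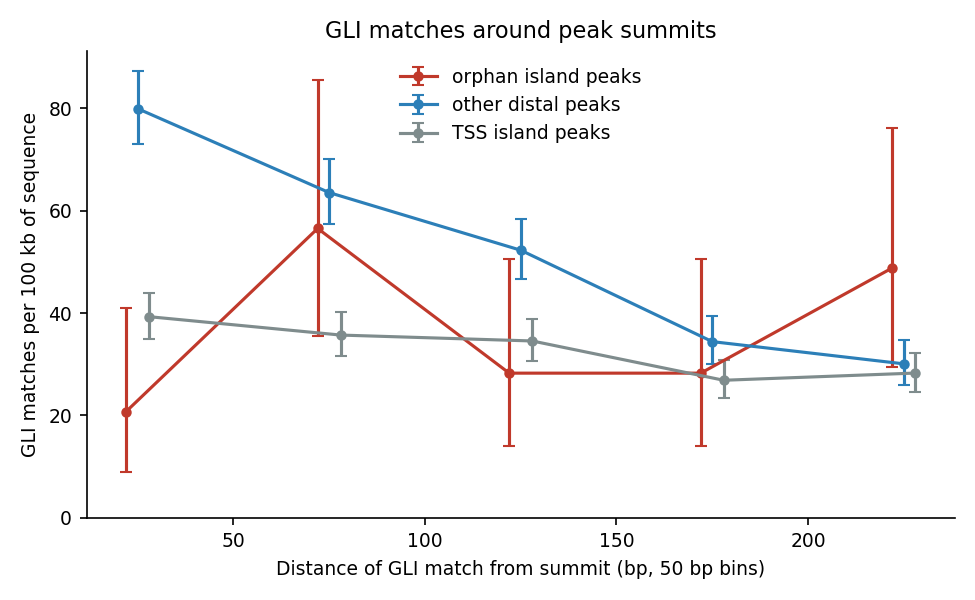
GLI matches per 100 kb of sequence by distance of the match centre from the summit in bins of 50 bp, for orphan island peaks (red), other distal peaks (blue) and TSS island peaks (grey). Lines are exact 95% Poisson intervals. Other distal peaks fall from 80.0 in the first bin to 30.1 in the last, while orphan island peaks start at 20.8, reach 56.6 in the second bin and have wide intervals throughout.

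The letters of the matches differed as well. Of the 69 matches in orphan island peaks 14 contained a CpG (20.3%, 12.5 to 31.2), against 2.56% at other distal peaks and 15.3% at TSS island peaks. The most frequent form was GCCCACCCA with 12, ahead of the exact consensus GACCACCCA with 10, and GACCACCCG and GACCACGCA, both with a CpG, had 6 each. GCCCACCCA was also ahead of the exact consensus in TSS island peaks (155 and 76), but not in other distal peaks (127 and 259). A single tandem array in Rere held 4 of the 10 exact matches and 3 of the 6 of GACCACGCA, and without it 11 of 61 matches contained a CpG (18.03%, 10.4 to 29.5). The criterion asks for CpG-rich sequence, so this share is not independent of it. The exact consensus was found in 7 peaks (1.80%, 0.874 to 3.67), against 3.41% of other distal peaks and 0.960% of TSS island peaks.

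The 7 peaks with the exact consensus are shown with the plus strand of mm10 around the match, matches in capitals. TGGGTGGTC is the consensus read on the opposite strand.
Peak nearest Hmga2, chr10:120551995-120552055: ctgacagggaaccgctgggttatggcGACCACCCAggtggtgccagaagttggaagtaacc
Peak nearest Kcnj1, chr9:32409862-32409922: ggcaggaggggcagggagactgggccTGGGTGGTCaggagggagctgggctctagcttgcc
Peak nearest Ezh2, chr6:47651222-47651282: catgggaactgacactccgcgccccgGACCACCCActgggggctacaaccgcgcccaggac
Peak nearest Smug1, chr15:103182471-103182531: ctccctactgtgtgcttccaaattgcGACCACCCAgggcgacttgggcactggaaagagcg
Peak nearest Rere, chr4:150581076-150581282: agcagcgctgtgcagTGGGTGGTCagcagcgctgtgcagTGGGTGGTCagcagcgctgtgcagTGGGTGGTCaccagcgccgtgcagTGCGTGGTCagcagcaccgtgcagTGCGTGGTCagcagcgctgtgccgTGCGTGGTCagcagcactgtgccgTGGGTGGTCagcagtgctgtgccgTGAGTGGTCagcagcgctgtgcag
Peak nearest Fos, chr12:85486460-85486520: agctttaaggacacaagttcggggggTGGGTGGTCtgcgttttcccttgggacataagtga
Peak nearest Foxp2, chr6:14898322-14898382: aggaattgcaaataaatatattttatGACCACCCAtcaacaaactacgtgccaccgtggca

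These 7 peaks had log2 values from 2.63 to 4.59, all with an FDR under 0.05. They were the peaks nearest Hmga2, Kcnj1, Ezh2, the DNA glycosylase gene Smug1, Fos and Foxp2 and the intronic peak of Rere, which encodes a nuclear receptor co-regulator. The matches lay between 50 and 236 bp from the summit, the closest at Ezh2. The Rere peak (rank 909, 3.41) was unlike the rest, with 8 matches spaced 24 bp apart in a tandem array, of which 4 were exact. The array began 68 bp to one side of the summit. It counts as 1 locus.

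Short sequence words of other factors were counted in the same windows on both strands, as a description of letters and not of binding. The GC box GGGCGG was in 75.8% (71.3 to 79.8) of orphan island peaks, 83.0% of TSS island peaks, 14.7% of other distal peaks and 50.2% of all autosomal peaks. For comparison, windows of the same size were taken at the centre of the 1831 orphan islands that had no listed peak and under 50% of repeat sequence, and there it was in 52.2% (49.9 to 54.5). These islands were not matched to the peaks in length or location, and their windows lay at island centres and not at summits. The words of factors common at promoters stood between the TSS island peaks and the other distal peaks. The ETS word CCGGAAG was in 12.6% of orphan island peaks, 19.6% of TSS island peaks, 2.80% of other distal peaks and 11.2% of all. In the same order, the NRF1 word GCGCATGCG was in 3.08%, 5.36%, 0.290% and 2.78%, the YY1 word AAGATGGCG in 1.80%, 4.21%, 0.370% and 2.18%, and the CRE word TGACGTCA in 2.06%, 2.84%, 0.418% and 1.67%. In the islands without a peak these 4 words were in 9.28% (ETS), 1.26% (NRF1), 0.492% (YY1) and 1.58% (CRE), and the 95% interval of each share overlapped that of the orphan island peaks. Words with a CpG are not independent of the criterion. The homeobox word TAATTA was in 9.25% (6.76 to 12.5) of orphan island peaks, above the 2.77% of TSS island peaks and the 4.04% of those 1831 islands, and below the 23.7% of other distal peaks (12.6% of all). The CCAAT word was in 42.4% against 30.7% of those islands and 44.6% of all peaks, the E-box CAGCTG in 26.2% against 29.7% and 29.3%, and the word CAGCACC, part of the REST site, in 11.8% against 15.6% and 12.0%.

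Finally, the peaks were set against all CpG islands of the autosomes that met the same sequence criterion. Orphan islands held a GLI3 peak much less often than islands at a TSS. Of 5479 orphan islands 337 had a listed peak within 500 bp (6.15%, 5.54 to 6.82), against 6356 of 14982 islands near a TSS (42.4%). Many orphan islands were made of repeats. Of the 3314 with 50% or more of repeat sequence 3 had a peak, and the part of read mapping in this was not tested. Of the 2165 with less, 334 did (15.4%, 14.0 to 17.0), against 43.3% of such islands near a TSS.

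Among these 2165 islands the share with a peak increased with length, from 6.94% (5.12 to 9.35) below 600 bp to 28.5% (23.3 to 34.3) at 1200 bp or more. It was below that of TSS islands in each of the 4 length classes. Longer islands hold more bases in which a summit can fall, and no share per base was computed.

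**Figure D5:**
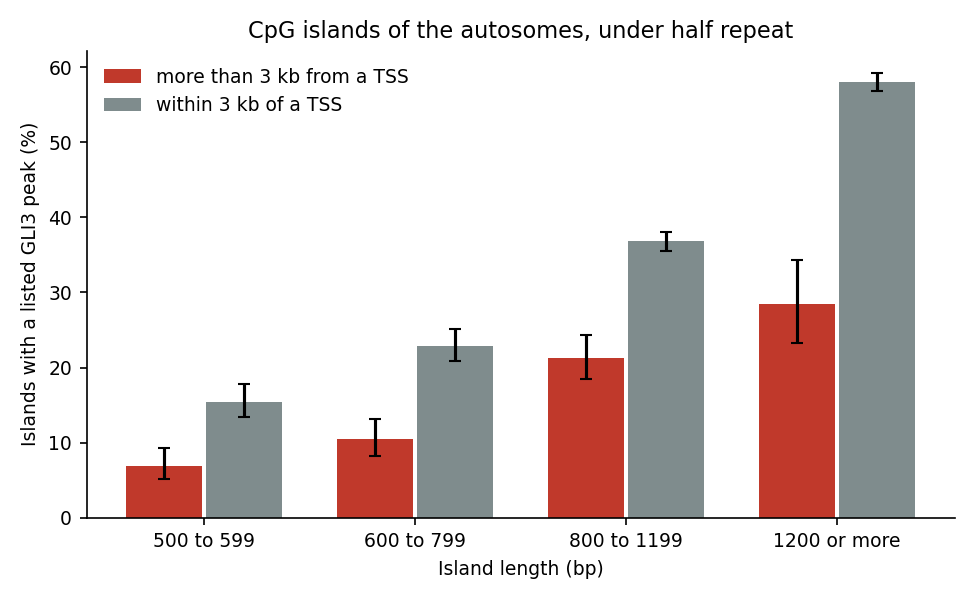
Share of CpG islands with a listed GLI3 peak (%) by island length (bp), for islands of the autosomes with under 50% repeat, more than 3 kb from a TSS (red) or within 3 kb of one (grey). Bars start at 0 and lines are 95% Wilson intervals. The share increases with length in both kinds, from 6.94% to 28.5% and from 15.4% to 58.0%.

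The share with a peak also differed by neighbouring gene and by location. Of the 329 orphan islands nearest a developmental factor gene 127 had a peak (38.6%, 33.5 to 44.0), against 207 of the 1836 nearest another gene (11.3%, 9.91 to 12.8). Counting peaks with an FDR under 0.05 only, the shares were 14.6% (11.2 to 18.8) and 6.70% (5.64 to 7.94). For islands near a TSS the shares were 54.8% and 42.7%. The median lengths of the 2 sets of orphan islands were 853 and 762 bp. The difference in share was present in each location. It was 41.3% against 21.2% for intergenic islands, 37.1% against 9.74% inside genes outside coding exons, and in coding exons 12 of 40 against 8 of 626 (1.28%).

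Orphan islands with a peak were rarely the coding-exon kind that is common among orphan islands. Their centre was in a coding exon for 20 of 334 (5.99%), against 646 of the 1831 without a peak (35.3%), and inside a gene for 32.3% against 63.7%. A GLI match in the central window was found in 12.6% (9.44 to 16.6) of the islands with a peak and 16.4% (14.8 to 18.2) of those without, and the exact consensus in 0.898% and 0.819%. Islands with a RefSeq start within 3 kb had a peak in 24.5% (98 of 400) and the rest in 13.4% (236 of 1765).

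The peaks next to the limits of the criteria were as follows. The closest to a TSS that were included were those nearest Slc38a10 (3024 bp, log2 enrichment 2.70) and Id3 (3033 bp, 3.95), and the closest left out were those nearest Cdh3 (2999 bp, 2.60) and Gm30191 (2982 bp, 2.03). For the CpG ratio, the peaks nearest 5730409E04Rik (0.653, log2 enrichment 1.99) and Nr2f1 (0.654, 1.85) were just inside, and those nearest Kdm6b (0.649, 2.83) and Ephb3 (0.648, 3.14) just outside.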

How the data were processed

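Per the labels, GLI3-FLAG ChIP and input libraries were made from E10.5 mouse forelimb buds. According to the submitters' processing notes the authors aligned reads with Bowtie2 2.2.5 to mm10 and per the study's methods called peaks with CisGenome. For every peak the deposited list holds an FDR q-value, a score (the maximum test statistic, not used here), the maximum log2 fold enrichment over input, and a −log10 Poisson p-value that stops at 100. A bound width column was not interpreted, the list has 0 columns of other samples, and its peak lengths step by 50 bp. It was taken to combine the replicates, and neither read counts nor depths were used here, so no test between replicates was made and the precision of single values is unknown.

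Peaks on chromosome X (289, of which 21 met the other criteria) and 6 on other sequences were outside the rule. Sequence came from the GRCm38.p6 RefSeq genome (the mm10 build), with lower case as repeats, and start sites and genes from GENCODE M21. CpG windows were merged into islands. Shares carry 95% Wilson intervals and medians order-statistic intervals, with Python 3.11.15, numpy 2.4.6, pandas 2.3.3 and scipy 1.17.1, and the functions were tested on simulated data. No test was run over peaks, since they share loci and are not replicates. The members and gene lists were chosen with earlier results of these data known. The text names the 20 best-ranked peaks, those nearest HH target genes, those with the exact GLI consensus, genes with 3 or more peaks, and peaks next to the limits. Alternatives changed the TSS distance, the TSS set, the CpG criterion, the FDR limit, the motif window and mismatches, the treatment of close peaks and of repeats, and added RefSeq starts.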

Additional observations from a re-analysis of the deposited data

How the results depend on the processing

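Each of the 10 main results was recomputed under alternatives that changed one choice at a time. Of 108 values 64 stayed within the 95% interval of the main value (for the number of peaks, within 1.5 times it), and 44 moved outside it. No paired analysis was possible because each peak has one joint value, and for the same reason neither replicate could be left out. The number of peaks was 783 with a TSS distance of 1 kb, 176 with 10 kb, 963 with the 5′ ends of genes only, 624 with coding transcripts only, 1534 and 228 with the lenient and strict CpG criterion, and 173 with an FDR under 0.05. The share inside genes was 54.8%, 22.2%, 72.7% and 43.3% under the first 4 of these and 43.0% under the lenient criterion. The share of orphan islands with a peak was 8.06%, 4.32%, 11.1% and 8.38% under the first 4, 1.51% and 20.3% under the lenient and strict criterion, 3.14% with an FDR under 0.05, 15.4% without repeats and 4.78% with RefSeq starts added. The share nearest a developmental factor gene was 25.6% at 10 kb, 23.1% with gene 5′ ends, 28.8% with coding transcripts, 23.2% with the lenient criterion and 29.5% with an FDR under 0.05. The share with a neighbour within 10 kb was 78.0% at 1 kb, 57.4% at 10 kb, 56.2% with the lenient criterion, 63.6% with close members counted once, 90.2% for neighbours within 50 kb and 55.8% when peaks within 1 kb were not counted. The share with a GLI match was 18.8% at 10 kb, 19.1% with an FDR under 0.05, 2.06% and 24.4% within 50 and 500 bp of the summit, and 1.80% for the exact consensus. The density ratio was 1.31 (0.966 to 1.79) with the lenient criterion, above 1 where the main value was below it. With close members counted once the share with an FDR under 0.05 was 49.7% and the median log2 enrichment 2.31. That median was 2.76 with an FDR under 0.05, and the share with an FDR under 0.01 was 30.8%. The share in repeats was 0% with the strict criterion and 27.8% when any repeat base within 50 bp counted. The cause of these shifts was not tested, beyond what fewer peaks or a wider window bring by construction. The 12 alternatives with RefSeq starts, without the Rere peak or without neighbours within 1 kb were chosen after seeing the data. The study states only a minimum read depth and no read counts were used here, so no limit of detection is given for islands without a peak.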
